A study of Mus musculus with 3 samples.

Results

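The mouse hairpin miR-21a gave 2 of the 471 rows in a table of miRNA levels from colonic mucosa, miR-21a-5p and miR-21a-3p, and both passed a minimum mean of 10 normalized reads. The rows were found by the hairpin's name. miR-21a was chosen by its measured values, since miR-21a-5p was known to stand highest in the knockout library, so its levels and ratios are given as a description with no test. Small RNA was sequenced in 3 libraries, 1 per group. WT came from a healthy mouse labelled global mir-10b+/+, KO from a mouse labelled diabetic and global mir-10b-/-, and mimic from a global mir-10b-/- mouse labelled rescue that was injected with a miR-10b-5p mimic, a synthetic copy of the missing miRNA. Genotype and diabetic state therefore cannot be told apart between WT and KO. No control injection, age, sex, strain or number of pooled mice was found in the labels. Replicate spread cannot be measured from 1 library per group, so each ratio compares a pair of libraries and not conditions.

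miR-21 is among the best known miRNAs of inflammation, wound repair and cancer. Drosha cuts its primary transcript to a hairpin, Dicer cuts the hairpin to a duplex of both arms, and the 5p arm is loaded into Argonaute, where its seed pairs with target mRNAs such as that of the tumour suppressor Pdcd4. The transcription factors STAT3 and AP-1 are known to switch the gene on in response to cytokines, and miR-21 is raised in the inflamed human colon. The 3p arm is the passenger strand, most of which is degraded after loading. In a bulk sample such as mucosa, a change in the cells present and a change in the level per cell cannot be told apart.

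The mature sequences are shown because the seed decides which mRNAs a miRNA can pair with and because close relatives of miR-21a could share its reads. They were taken from RefSeq (GRCm38.p6) and run 5′ to 3′, with the seed, bases 2 to 8, in capitals.
miR-21a-5p: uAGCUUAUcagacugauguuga
miR-21a-3p: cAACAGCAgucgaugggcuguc
miR-21b: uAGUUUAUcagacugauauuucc
miR-21c: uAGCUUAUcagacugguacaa
miR-192-5p: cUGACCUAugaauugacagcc
miR-215-5p: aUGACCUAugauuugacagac

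The arms of miR-21a carry different seeds and so address different mRNAs. miR-21c has the seed of miR-21a-5p and the same first 15 bases, and differs at 5 of the 21 positions compared. miR-21b differs from miR-21a-5p at 4 of 22 positions, with a different seed. The table had 0 rows for miR-21b and 0 for miR-21c, and how reads that match several of them were assigned is not given in the sources used here. Of the 471 rows, 385 matched a RefSeq mature sequence by name. Among these the seed AGCUUAU occurred in 1 row, miR-21a-5p, and the seed AACAGCA in 1 row, miR-21a-3p. miR-192-5p and miR-215-5p share the seed UGACCUA. They are shown as the seed group that ranked 1 in WT and mimic and 2 in KO among the matched rows only. miR-143-3p was not among the matched rows. In mimic it alone stood at 1655929 normalized reads, above the pair's sum of 1517357.

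The miR-21a hairpin of 92 bases lies on the minus strand of chromosome 11 at chr11:86584067-86584158 (GRCm38). It sits inside exon 12 of the Vmp1 transcript Vmp1-201, in the untranslated part of that exon, and on the same strand. Vmp1 encodes a membrane protein of autophagy. The 5p arm occupies bases 86584120 to 86584141 and the 3p arm bases 86584082 to 86584103. The nearest other annotated miRNA gene was Mir301, 528846 bases away, so that miR-21a has no cluster partner close by.

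miR-21a-5p stood at 319136 normalized reads in WT, against 1360772 in KO and 626341 in mimic. KO was the highest library, WT was the lowest and mimic lay between them. The KO value was 4.26 times that of WT, the mimic value 1.96 times that of WT, and the KO value 2.17 times that of mimic. On the log2 scale, after adding 1 normalized read to each value, KO against WT gave 2.09, mimic against KO gave -1.12 and mimic against WT gave 0.97. Mimic thus stayed above WT by 46.5% of the log2 distance between WT and KO. On the linear scale it stayed above WT by 29.5% of that distance. These ratios share libraries, so they are not separate pieces of evidence.

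The passenger arm was rare in all libraries. miR-21a-3p stood at 462 normalized reads in WT, against 1062 in KO and 840 in mimic, with the libraries in the same order as for miR-21a-5p. The KO value was 2.30 times that of WT (log2 ratio 1.20), and this ratio came inside 2-fold, at 0.46, when the libraries were scaled to the same total. The log2 ratio of this arm was -0.34 from KO to mimic and 0.86 from WT to mimic.

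**Figure D1:**
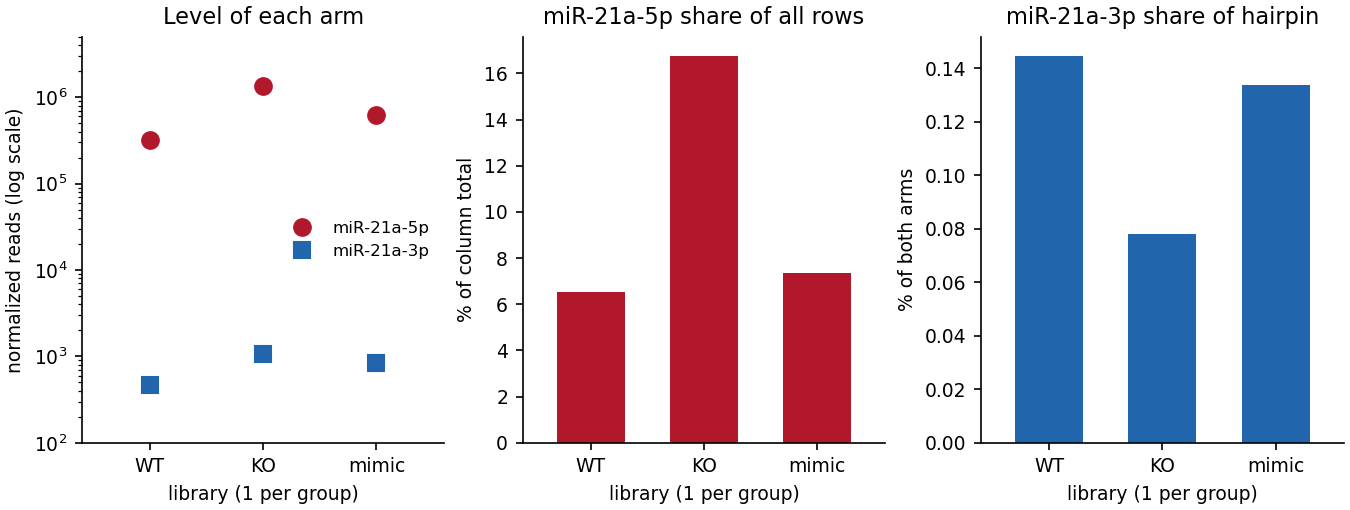
Normalized reads of both miR-21a arms on a log axis (left), the percentage of each column total taken by miR-21a-5p (middle) and the percentage of the hairpin's reads that were miR-21a-3p (right), with 1 point or bar per library. The 5p share of 16.7% in KO stands above 6.55% in WT and 7.36% in mimic, while the 3p part of the hairpin was lowest in KO at 0.078%.

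The libraries did not share a total. The columns summed to 4872446 normalized reads in WT, against 8124898 in KO and 8510085 in mimic, the read depth is unknown, and 6, 39 and 56 rows were listed at 0. The deleted gene's own miRNA, miR-10b-5p, went with the labels, at 18057 in WT against 14 in KO and 469 in mimic. Because the totals differed, miR-21a-5p was also set against the rest of its own library.

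As a share of its column, miR-21a-5p took 6.55% in WT, against 16.7% in KO and 7.36% in mimic. The KO share was 2.56 times that of WT, and the mimic share was 1.12 times that of WT. On this scale WT and mimic lay close together and KO stood apart. Against the sum of all rows other than miR-21a, the KO value was 2.87 times that of WT. With median-of-ratios factors, which set the typical row equal between libraries, KO was 3.84 times WT, mimic 2.16 times WT, and KO 1.78 times mimic. KO was the highest of the 3 libraries under each of these scalings, while the distance of mimic from WT ranged from 1.12-fold to 2.16-fold.

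miR-21a-5p ranked 3 in WT, 1 in KO and 3 in mimic among the 471 rows. In WT it stood behind miR-192-5p, a miRNA of gut epithelium, at 656011, and miR-200a-3p, of the epithelial miR-200 family, at 380522. In KO it exceeded the second row, miR-192-5p at 1081718, by 1.26 times. In mimic it stood behind miR-143-3p, abundant in smooth muscle, at 1655929, and miR-192-5p at 1341381. Counted by seed, the pair miR-192-5p and miR-215-5p summed to 741540 in WT, against 1174372 in KO and 1517357 in mimic. miR-21a-5p was 0.43 times that sum in WT, 1.16 times it in KO and 0.413 times it in mimic, so its seed outnumbered theirs in KO but not in the other libraries.

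miR-21a-5p moved by more normalized reads than any other row in both deposited comparisons. In the authors' deposited table the difference KO minus WT was 1041636 and the difference of mimic minus KO was -734431, the highest and the lowest value of their columns. The first difference equalled 32.0% of the gap of 3252452 normalized reads between the column totals of KO and WT. It was 27.5% of the summed gains over all rows that were higher in KO than in WT. The loss from KO to mimic was 37.9% of the summed losses over all rows that were lower in mimic. Such differences grow with a row's abundance, so they weight abundant rows over rare ones. Without both miR-21a rows, the KO total was still 1.49 times the WT total.

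In ratio rather than in reads, miR-21a-5p was high but not at the extreme. Of 415 rows with a mean of at least 10, its log2 ratio of KO against WT ranked 16 from the highest, above 96.4% of the other rows. That of miR-21a-3p ranked 63. Both arms were thus at least 2-fold higher in KO, as were 21.2% of all rows. From KO to mimic, miR-21a-5p ranked 112 from the lowest, below 73.2% of the other rows, and miR-21a-3p ranked 203. Only the 5p arm was at least 2-fold lower in mimic than in KO, as were 28.2% of all rows. In mimic against WT neither arm was 2-fold apart, where 19.8% of all rows passed that limit upwards. The median log2 ratio over all rows was 0.13, -0.31 and -0.14 in the same order of comparisons. The order of rows within a comparison hardly depends on how whole libraries are scaled, so these places describe miR-21a apart from the unequal totals.

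**Figure D2:**
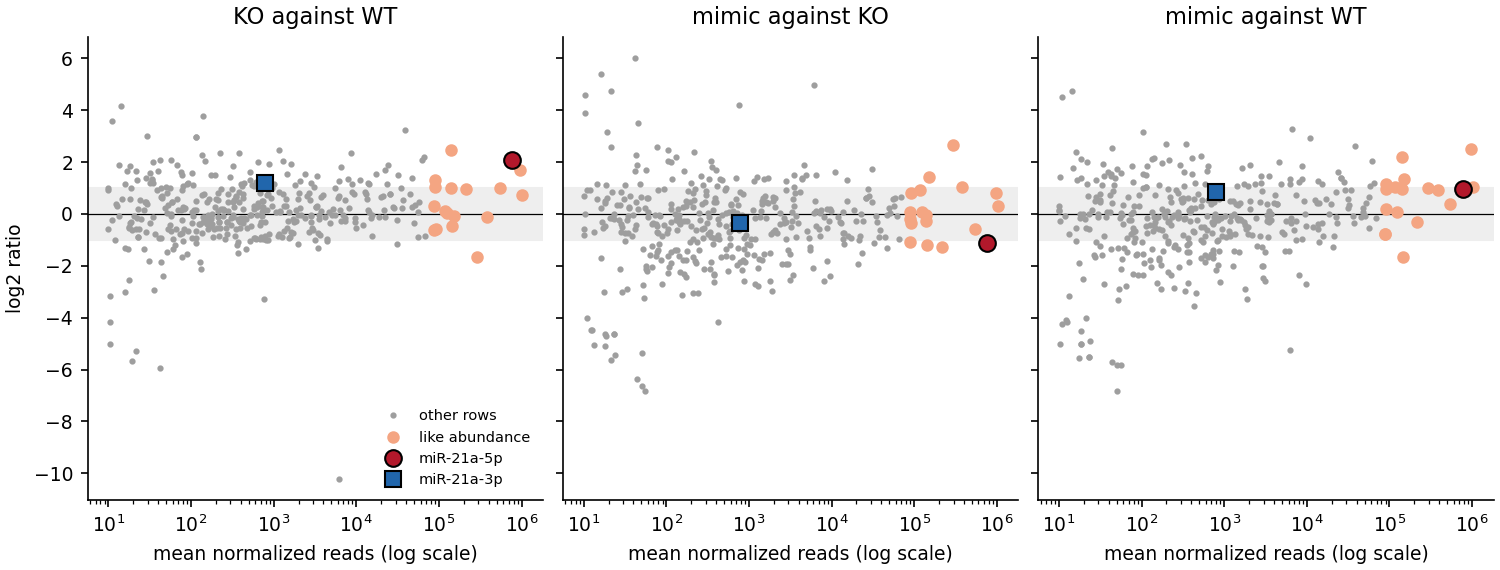
Log2 ratio of each of the 415 rows against its mean level (log axis) for the 3 comparisons, with the band inside 2-fold shaded, rows of like abundance in orange and both miR-21a arms outlined. miR-21a-5p lies at 2.09, -1.12 and 0.97 from left to right, at the right edge of the cloud, and miR-21a-3p at 1.20, -0.34 and 0.86.

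Rare rows scatter more than abundant ones, so miR-21a-5p was also placed among rows of like abundance. These were the 17 other rows whose mean over the libraries lay within 10-fold of its own. In KO against WT, 16 of the 17 had a lower ratio than miR-21a-5p. The exception was miR-148a-3p, a miRNA abundant in liver and secretory tissue, at 37461 in WT against 209390 in KO and 173201 in mimic (log2 ratio of KO against WT 2.48). The ratios of the 17 rows ran from -1.65 for miR-145a-5p to 2.48, with a median of 0.31. Beside 21.2% of all rows, 4 of the 17 were at least 2-fold higher in KO. Those 4 were miR-148a-3p, miR-143-3p, let-7g-5p and let-7f-5p. With the libraries scaled to the same total, only miR-148a-3p of these stayed past 2-fold, at 1.75. The others came to 0.96 (miR-143-3p), 0.57 (let-7g-5p) and 0.31 (let-7f-5p).

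The 4 rows of like abundance that were at least 2-fold higher in KO, beside miR-21a-5p, were not 2-fold lower in mimic than in KO. miR-148a-3p had a ratio of -0.27, let-7g-5p of -0.36, let-7f-5p of 0.09 and miR-143-3p of 0.79. Between KO and mimic, 2 of the 17 rows of like abundance had a lower ratio than miR-21a-5p, namely miR-200b-3p at -1.26 and miR-378a-3p, encoded in the metabolic regulator gene Ppargc1b, at -1.20. The third of the 17 rows at least 2-fold lower was miR-375-3p, a miRNA of endocrine cells, at -1.07. Over all rows 28.2% passed that limit downwards. In mimic against WT, 10 of the 17 rows had a lower ratio than miR-21a-5p, and their median was 0.95 beside its 0.97. In that comparison miR-21a-5p held a middle place among these abundant rows.

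Set directly against single abundant miRNAs, which needs no scaling, miR-21a-5p was higher in KO than in WT relative to 16 of the 17. It was 0.486 times the level of miR-192-5p in WT, 1.26 times in KO and 0.467 times in mimic. Against miR-27b-3p, a miRNA linked to lipid metabolism and vessels, it was 1.06 times in WT, 4.90 times in KO and 1.10 times in mimic. Against miR-26a-5p, whose own level stayed between 120950 and 128088, it was 2.64, 11.1 and 4.89 times. For the first 2 of these partners the mimic ratio lay near that of WT. For miR-26a-5p it lay between WT and KO. Other partners differed in the place of mimic. Against miR-200b-3p miR-21a-5p was 1.86, 4.07 and 4.49 times, highest in mimic. Against miR-143-3p it was 1.08, 1.43 and 0.378 times, lowest in mimic.

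**Figure D3:**
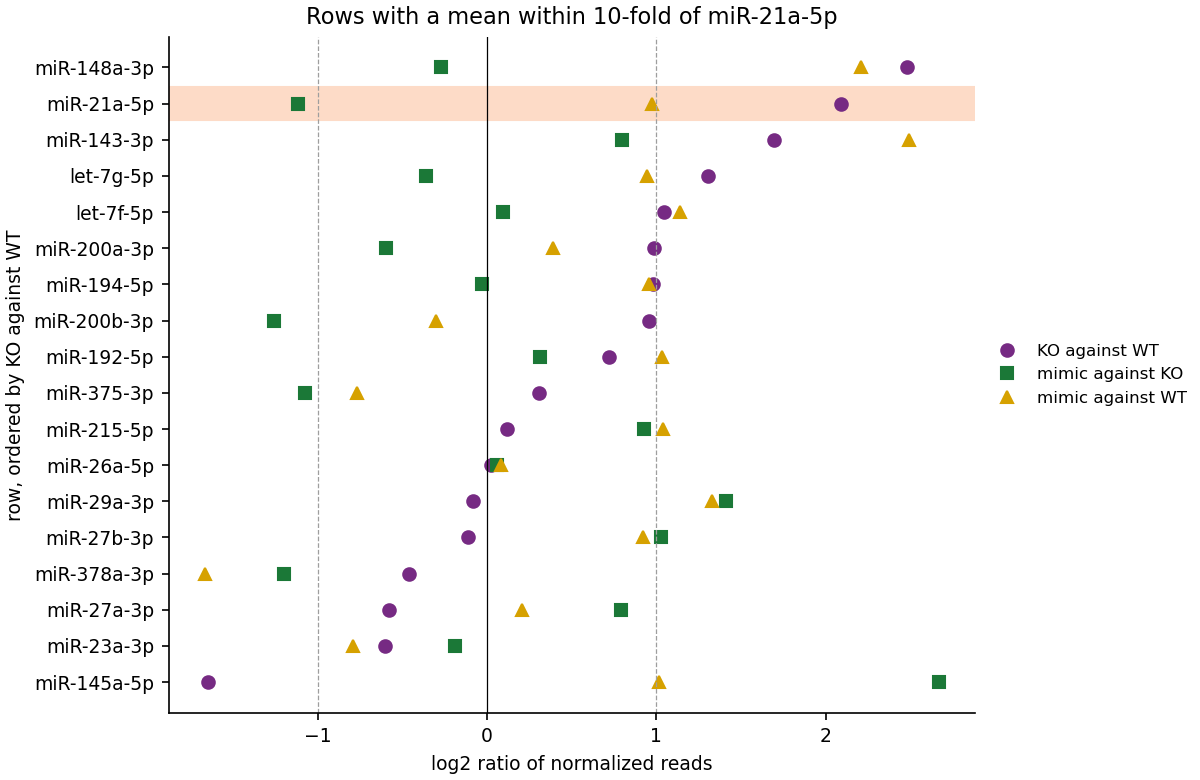
Log2 ratios of miR-21a-5p (shaded) and the 17 rows of like abundance for KO against WT (circles), mimic against KO (squares) and mimic against WT (triangles), ordered by the first, with dashed lines at 2-fold. miR-21a-5p is second from the top, below miR-148a-3p at 2.48, and has a negative ratio of mimic against KO (-1.12).

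Both arms come from the same hairpin and the same library, so their balance does not depend on scaling. The 5p arm exceeded the 3p arm 689 times in WT, 1280 times in KO and 745 times in mimic, after adding 1 normalized read to each. The passenger arm made up 0.145%, 0.078% and 0.134% of the hairpin's reads. WT and mimic were close, and KO was more tilted to the 5p arm, by a log2 difference of 0.89 from WT.

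Such a bias placed miR-21a among the most asymmetric hairpins of the table. Of 128 hairpins with both arms above 0 in every library, miR-21a ranked 5 by the size of its mean log2 balance, which was 9.76 against a median size of 3.78. It was 1 of 73 hairpins that favoured the 5p arm. Just more asymmetric were miR-200c (mean log2 balance -9.94, towards 3p), miR-99a (9.97) and miR-182 (10.41). Just less asymmetric were miR-192 (9.44), miR-29a (-9.13) and miR-191 (9.13). The minor arms were at a mean of 22 normalized reads for miR-200c, 23 for miR-99a and 14.7 for miR-182, so the exact order of these hairpins is loose. Among the 89 hairpins with both arms at a mean of at least 100, miR-21a ranked 2.

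The shift of the balance between libraries was ordinary. In KO against WT, 67 of the 127 other hairpins (52.8%) shifted by more than the 0.89 of miR-21a in either direction. From KO to mimic the shift of miR-21a was -0.78, and 63 of 127 shifted by more. In mimic against WT it was 0.11, and 121 of 127 shifted by more. Among 89 hairpins with both arms at a mean of at least 100, the widest shifts from WT to KO were those of miR-329 (3.41), miR-98 (3.34), miR-744 (2.85), miR-183 (-2.79) and miR-30e (2.55). For miR-30e the 5p arm exceeded the 3p arm 6.83 times in WT, 40.0 times in KO and 7.12 times in mimic, the same order as for miR-21a and a wider swing.

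**Figure D4:**
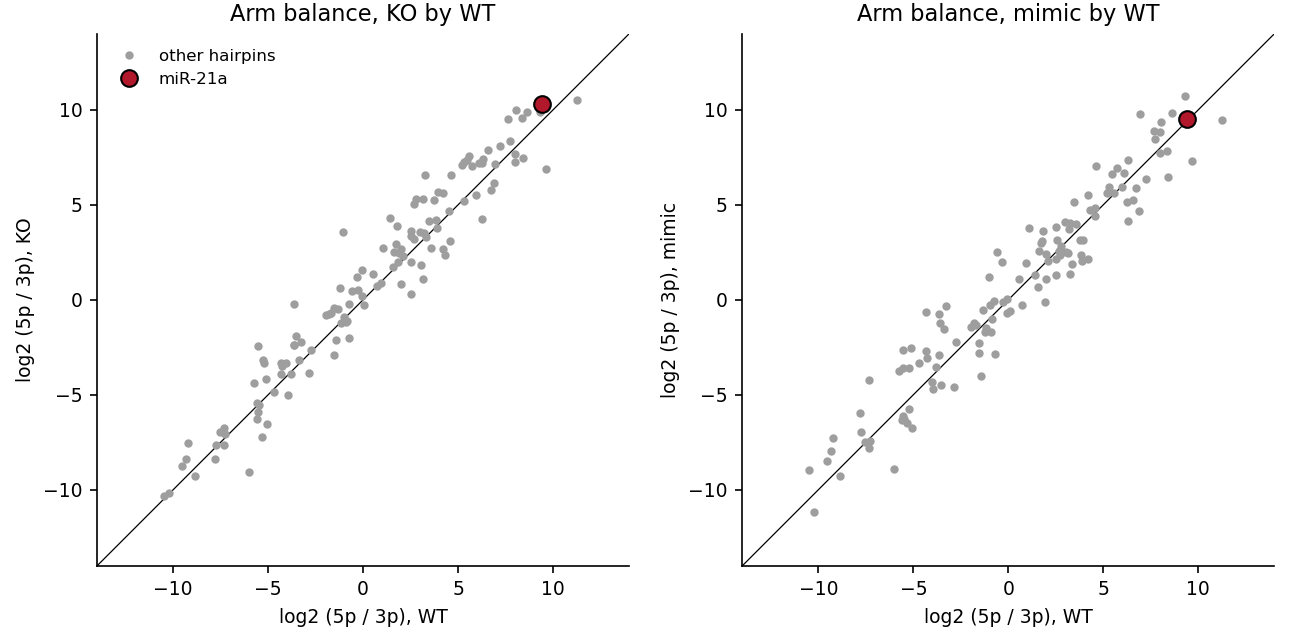
Log2 of the 5p over the 3p level for each of 128 hairpins in KO (left) and mimic (right) against WT, with the line of equal balance. miR-21a lies at the upper right, above the line in KO (shift 0.89) and almost on it in mimic (shift 0.11).

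Rows with the most similar profile were found by the distance between log2 values centred on each row's mean over the 3 libraries, among 301 other rows with a mean of at least 100. A distance over 3 libraries rests on few points, and the libraries are shared by all rows, so likeness is given as a description only. The nearest row was miR-30e-5p, of the miR-30 family, at 24946 in WT against 113295 in KO and 57750 in mimic, at a distance of 0.17. The second was miR-301a-3p at 146, 523 and 309, at a distance of 0.26. Mir301, which encodes it, is also the miRNA gene nearest to Mir21a, although on the other strand. The other arm, miR-301a-5p, stood at 49, 68 and 62. Their sequences show that the nearest rows have seeds unlike that of miR-21a-5p.
miR-30e-5p: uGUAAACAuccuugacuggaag
miR-301a-3p: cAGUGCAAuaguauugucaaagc

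The other 6 nearest rows spanned several families. They were miR-30b-5p at 11103 in WT against 36242 in KO and 19843 in mimic, miR-379-5p at 417, 1579 and 620, and miR-103-3p at 9567, 27480 and 14302. miR-6538 (52, 156 and 104), miR-409-5p (295, 914 and 362) and let-7a-5p (19060, 53329 and 24447) followed, at distances of up to 0.50. miR-103-3p is encoded in pantothenate kinase genes, and miR-379-5p and miR-409-5p in the imprinted Dlk1-Dio3 region. All 8 were highest in KO and lowest in WT, an order that follows from choosing them for likeness to miR-21a-5p. The passenger arm miR-21a-3p came in place 19 of the 301, at a distance of 0.69, with a smaller gap between KO and mimic.

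**Figure D5:**
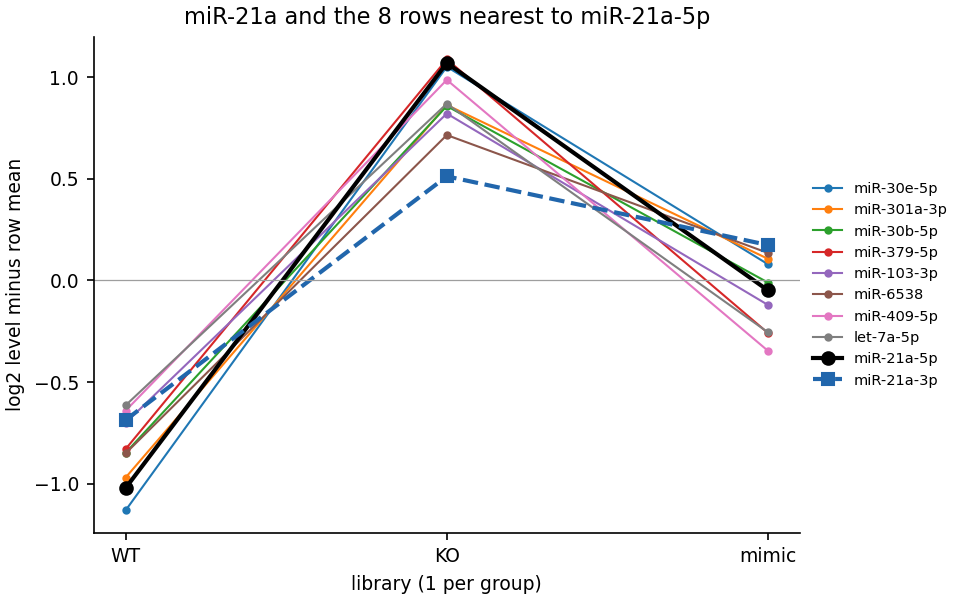
Log2 level minus the row's own mean in each library for both miR-21a arms and the 8 rows nearest to miR-21a-5p. All lines peak in KO, which for the 8 rows follows from how they were chosen. miR-21a-3p (dashed) has a shallower peak than miR-21a-5p.

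Of the other miRNAs linked to inflammation, 3 of the 13 rows at a mean of at least 10 passed 2-fold upwards in KO and the other 10 lay inside 2-fold. A further row, miR-146a-3p, was below that mean, at 6 in WT, listed at 0 in KO and at 14 in mimic. The list held 9 such miRNAs, and its 14 rows summed to 0.41% of the WT total, 0.438% in KO and 0.33% in mimic. In KO against WT 3 of the 13 (23.1%) were at least 2-fold higher and 0 were lower, beside 21.2% and 9.64% of all rows, and the list's median log2 ratio was 0.20 beside 0.13 over all rows. The 3 were miR-146a-5p at 9351 in WT against 20555 in KO and 12452 in mimic, miR-146b-5p at 1173, 3405 and 2583, and miR-132-5p at 56, 128 and 94. miR-146a and miR-146b restrain NF-kB signalling by repressing Traf6 and Irak1. These 3 were picked for a KO level at least 2-fold above WT. That choice sets WT and KO apart and so also makes a place of mimic between them more likely. Mimic lay between KO and WT in all 3, as for miR-21a, which was not compared with the other rows higher in KO.

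Other inflammation-linked miRNAs stayed closer to WT in KO. For miR-155-5p, induced in activated lymphocytes and macrophages, WT held 605, KO 693 and mimic 422. miR-223-3p, a neutrophil and monocyte miRNA, stood at 1438, 1179 and 1821. miR-31-5p, raised in the inflamed human colon, stood low at 27, 36 and 25. None of these 3 rows was 2-fold apart in any of the 3 comparisons. miR-147-3p stood at 5398, 7883 and 8857, and miR-147-5p at 113, 180 and 748. miR-212-3p stood at 393, 201 and 170, miR-132-3p at 699, 671 and 217, and miR-9-5p at 514, 452 and 440. From KO to mimic 2 of the 13 rows were at least 2-fold higher and 1 lower, beside 13.3% and 28.2% of all rows. Their median was -0.30 beside -0.31 over all rows. From WT to mimic 3 passed 2-fold upwards and 2 downwards, beside 19.8% and 25.8%, at a median of 0.34 beside -0.14.

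The summed level of white blood cell markers was lowest in KO, mostly through miR-142a-5p. The 5 rows of miR-142a, miR-150, miR-223 and miR-342 summed to 40560 normalized reads in WT, against 21819 in KO and 52556 in mimic, or 0.832%, 0.269% and 0.618% of the column totals. In KO against WT 0 of the 5 were at least 2-fold higher and 1 was lower, beside 21.2% and 9.64% of all rows, and the median was -0.60. With 5 rows such counts do not set the list apart from all rows. The lower row was miR-142a-5p at 31674 in WT against 14200 in KO and 47347 in mimic. miR-142a-3p stood at 1587, 2753 and 1804, against the direction of its own 5p arm, and miR-150-5p, a lymphocyte miRNA, at 1187, 613 and 410. miR-342-3p stood at 4674, 3074 and 1174, so it and miR-150-5p were lower in mimic than in KO. Between KO and mimic 1 of the 5 passed 2-fold upwards and 1 downwards, beside 13.3% and 28.2% of all rows, at a median of -0.58. Between WT and mimic 0 passed it upwards and 2 downwards, beside 19.8% and 25.8%, at a median of 0.18. No white blood cell row was at 0, and the part of these cells in the level of miR-21a-5p was not tested.

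The labelled tissue was checked against epithelial markers, which were abundant in each library. Their 17 rows together took 33.6% of the WT total, 33.1% in KO and 29.7% in mimic. In such a sum, rows that moved in opposite directions offset each other. Of 16 rows with a mean of at least 10, 4 were at least 2-fold higher and 1 lower in KO than in WT (median 0.51), 1 was higher and 4 lower in mimic than in KO (median -0.06), and 4 were higher and 0 lower in mimic than in WT (median -0.17). Over all rows 21.2% were at least 2-fold higher and 9.64% lower in KO than in WT. From KO to mimic 13.3% were higher and 28.2% lower, and from WT to mimic 19.8% and 25.8%. The medians over all rows were 0.13, -0.31 and -0.14 in the same order. Muscle markers took 11.8%, 13.1% and 26.4% of the totals, so they were highest in mimic rather than in KO. Of 8 muscle rows 3 were higher and 2 lower in KO than in WT (median -0.46), beside 21.2% and 9.64% of all rows. In mimic against KO 6 were higher and 0 lower (median 1.54), beside 13.3% and 28.2% of all rows. In mimic against WT 6 were higher and 0 lower (median 1.34), beside 19.8% and 25.8% of all rows.

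Markers of the remaining cell types were rarer, and none of these lists had its highest share in KO. Fibroblast and mesenchyme markers took 1.47% of the WT total, 1.05% in KO and 0.74% in mimic, and endothelial markers 1.23%, 0.959% and 1.44%. Red blood cell markers took 0.0451%, 0.0228% and 0.0368%, and neuronal markers 0.0338%, 0.0202% and 0.0114%. In KO against WT, 0 of 5 fibroblast rows, 0 of 2 endothelial rows, 2 of 4 red blood cell rows and 0 of 5 neuronal rows were at least 2-fold higher, beside 21.2% of all rows. At least 2-fold lower was 1 neuronal row and 0 rows of the other 3 lists, beside 9.64% of all rows. The median log2 ratios were -0.02, 0.34, 0.60 and -0.19. In mimic against KO their medians were -0.84, 0.66, 0.26 and 0.37, and in mimic against WT -0.87, 1.01, 0.79 and -0.22. As deposited, the fibroblast and endothelial sums were higher in KO than in WT, at 85250 against 71469 and at 77948 against 59834, so their lower shares in KO go with its larger total. The part of any of these cells in the level of miR-21a-5p was not tested.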

How the data were processed

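Small RNA libraries were made from total RNA of colonic mucosa with a TruSeq kit and read as single ends of 50 bases, per the labels' protocols. The deposited values are a score: per the file headers they are normalized miRNA reads, given by the authors as whole numbers. The deposited table also holds columns of another kind, the authors' differences of KO from WT and of mimic from KO, and recomputing them found 0 exceptions. Per the submitters' processing notes, the genome was mm10. No aligner, counter or normalization method is stated in the header or labels, and the depth is unknown, so no counting interval can be given.

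The members and all lists were chosen with earlier results of these data known. Values were used as deposited, with Python 3.11.15 and pandas 2.3.3. The 415 of 471 rows with a mean of at least 10 were kept. Ratios are log2 of values plus a pseudocount of 1, and the limit for a higher or lower row was 2-fold. No test was possible with 1 library per group. Arm balance used hairpins with 1 row per arm above 0 in all libraries. Rows named are those of miR-21a, the 17 rows of like abundance, the 8 nearest in pattern, hairpins next to miR-21a in arm balance and with the widest shifts, and members of 8 lists. Matching names to lists ignored the arm. Alternatives were other scalings, pseudocounts, filters, limits and abundance windows, and those for miR-21a-3p were added after seeing the data. The functions were tested on simulated data. Sequences came from RefSeq, and gene positions from GENCODE on GRCm38.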

Additional observations from a re-analysis of the deposited data

How the results depend on the processing

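No replicate could be left out and no paired analysis was possible because each group has 1 library. The log2 ratio of miR-21a-5p in KO against WT stayed past 2-fold under the 5 alternatives run, from 1.35 to 2.09. With median-of-ratios factors the ratio of mimic against KO became -0.83, inside 2-fold, and that of mimic against WT became 1.11, past it. Over all alternatives these ran from -1.34 to -0.83 and from 0.17 to 1.11. The place of its ratio among all rows stayed between 95.9% and 97.1%, 25.2% and 27.7%, and 79.6% and 81.9% of rows with a lower ratio, in the 3 comparisons. Among rows within 5-fold of its mean, 100% of the other 6 had a lower ratio of KO against WT, beside 94.1% within 10-fold and 89.7% within 30-fold.

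Without the other 9 of the 10 most abundant rows, miR-21a-5p took 13.2% of the rest in WT, 32.2% in KO and 19.0% in mimic. Its 5p over 3p balance was 691, 1280 and 746 with a pseudocount of 0.1, and 676, 1269 and 737 with one of 10. Of the 8 rows nearest in pattern, 8 remained with equal totals and 6 with a minimum mean of 10.

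Counts over all rows depended on the scaling, the filter and the limit. Rows at least 2-fold higher and lower in KO than in WT, 88 and 40 as deposited (68.8% higher), numbered 30 and 141 with equal totals (17.5%), 39 and 110 with equal totals of rows other than miR-21a, 71 and 61 with median-of-ratios factors (53.8%), 58 and 18 at a mean of at least 100, and 137 and 86 at a 1.5-fold limit. With no filter 75 were lower. In mimic against KO 93 were higher at the 1.5-fold limit, beside 55. In mimic against WT, 82 and 107 as deposited became 30 and 194 with equal totals, 30 and 192 with equal totals of rows other than miR-21a, and 67 were lower at a mean of at least 100. Equal totals add -0.74, -0.07 and -0.80 to every log2 ratio in the 3 comparisons by construction, a lower limit counts more rows, and a higher minimum mean tests fewer. The cause of the moves under median-of-ratios factors was not tested.

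With equal totals, medians in KO against WT turned to -0.54 for the inflammation-linked list, -0.22 for epithelium, -0.39 for endothelium and -0.13 for red blood cells, and passed 2-fold at -1.34 for white blood cells and -1.19 for muscle. In mimic against WT they turned to -0.46 for the inflammation-linked list, -0.62 for white blood cells and -0.013 for red blood cells, passed 2-fold at -1.67 for fibroblasts and -1.03 for neurons, and became 0.54 for muscle and 0.20 for endothelium. With median-of-ratios factors epithelium in mimic against KO turned to 0.22. List members at least 2-fold apart in KO against WT numbered 4 white blood cell, 1 fibroblast, 1 red blood cell and 2 neuronal rows with equal totals, and 2 white blood cell and 1 red blood cell rows with median-of-ratios factors. With equal totals they numbered 2 fibroblast rows in mimic against KO, and 7 epithelial, 0 endothelial and 1 red blood cell rows in mimic against WT, where median-of-ratios factors gave 1 fibroblast and 2 endothelial rows. The other 36 of 48 such counts moved by at most 1.5 times. These counts join both directions, so a steady count can hide a turn. In KO against WT the inflammation-linked list had 3 rows 2-fold apart as deposited, all higher in KO. With equal totals it had 2, both lower in KO, miR-212-3p at -1.70 and miR-223-3p at -1.02.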
